A study of Mus musculus with 15 samples.

Results

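Gene expression in the mouse auditory nerve was compared between 7 days and 1 day after loud noise. The comparison used 6 of the 15 arrays of the series, 3 for each day, taken by the day and replicate number in their titles. Every array carried RNA from 1 animal, whose left and right nerves were joined, so the replicates are separate animals. The mice were CBA/CaJ, an inbred strain that keeps good hearing as a young adult, with no other allele named in the labels. They were 5 to 12 weeks old and had heard a noise band of 8 to 16 kHz at 106 dB SPL for 2 hours. The 1-day group held 3 males. The 7-day group held 1 male, replicate 1, and 2 females. Values of 3 unexposed females (the controls) and of 3 mice taken 14 days after noise, 1 male and 2 females, are set beside the comparison. A further 3 mice taken immediately after noise entered the fit and the plots. Quaking, which the title of the series names, binds RNA in cells that make myelin.

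The auditory nerve carries signals from the hair cells of the cochlea to the brainstem. Its neurons, the spiral ganglion neurons, have cell bodies in the modiolus, the bony core of the cochlea, and their fibres are wrapped in myelin by Schwann cells. Resident macrophages lie among them, and after injury chemokines draw further macrophages from the blood. Cytokines of the interleukin 6 family act through the transcription factor STAT3, interferons act through receptors of their own, and both pathways induce their own inhibitors, which is one of the ways in which such responses end.

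Values are log2 intensities of a 3' expression array. A difference is a log2 fold change with its standard error from a limma fit over all 15 arrays, in which 13644 genes were tested, and a gene is called where the p-value adjusted by Benjamini-Hochberg over those genes is under 0.05. Each group mean rests on n = 3 arrays. Markers of the nerve gave signal on every array, among them the calcium-binding protein Calb2 at 13.35 to 13.39 and at 13.53 to 13.76 on the respective days, and myelin basic protein, Mbp, at 13.89 to 13.95 and 13.92 to 13.97. The bone matrix gene Dmp1 gave signal too, at 10.57 to 11.05 and 10.66 to 11.25. Because whole tissue was measured, fewer cells of a type and less RNA per cell cannot be told apart in any of the values below. On all 15 arrays Xist and a Y-linked gene were at the level that fits the labelled sex. On the first principal component, which carried 20.8% of the variance, the 1-day arrays lay at 13.8, 22.4 and 16.3 and the 7-day arrays at -4.5, -15.0 and -2.4, so that 7-day replicate 2 lay farthest from the 1-day group. Replicate 2 at 14 days stood apart in its interferon-induced genes, as given with them.

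Between day 1 and day 7, 1276 genes were called, 9.35% of those tested, of which 700 (5.13%) were higher at 7 days and 576 (4.22%) lower. Large changes were mostly falls, since 36 genes fell by at least 2-fold and 5 rose by as much. The median change of a called gene was -0.37 among falls and 0.35 among rises, against 0.02 over all genes tested. Against control, 434 genes (3.18%) were called at 1 day, 207 higher and 227 lower. All 1-day arrays were male and all controls female. Sex and day therefore cannot be told apart in any value of 1 day against control given here, list medians included. At 7 days 3 genes (0.0220%) were called against control, the clock output genes Dbp and Ciart, which were lower, and the long non-coding RNA Neat1, which was higher. At an unadjusted p under 0.05 the 7-day difference from control held 1525 genes. These comparisons share arrays with each other, so their values are given side by side and not as independent counts.

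Sex differed between the days, and the count of calls moved with it. With sex as a term 449 genes (3.29%) were called, 272 higher and 177 lower, and 428 of them were among the 1276. All 1276 calls kept their direction in that fit, and in all 1276 the 7-day male lay on the same side of the 1-day mean. The calls were chosen on a 7-day mean that includes this male, so these counts do not test the part of sex. The median change from the 1-day mean among called falls was -0.30 for the 7-day male and -0.40 for the 7-day females, and among called rises 0.38 and 0.34. The count also moved with single arrays: leaving out 1-day replicate 2 left 429 calls, 1-day replicate 3 left 736 and 7-day replicate 2 left 724, against 957 to 1329 for each of the others. Leaving out a control, immediate or 14-day array gave 1138 to 1326. Calls lost with sex as a term are therefore given below, by gene or as a count of the calls kept in a list.

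Gene lists for 37 pathways, cell types and complexes were used to order the results. Of 586 list memberships, 51 had no 1-gene probe set and 460 were tested. A list is described by its count of called members and by its median difference, beside the 9.35% and the median of 0.02 over all genes.

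**Figure D1:**
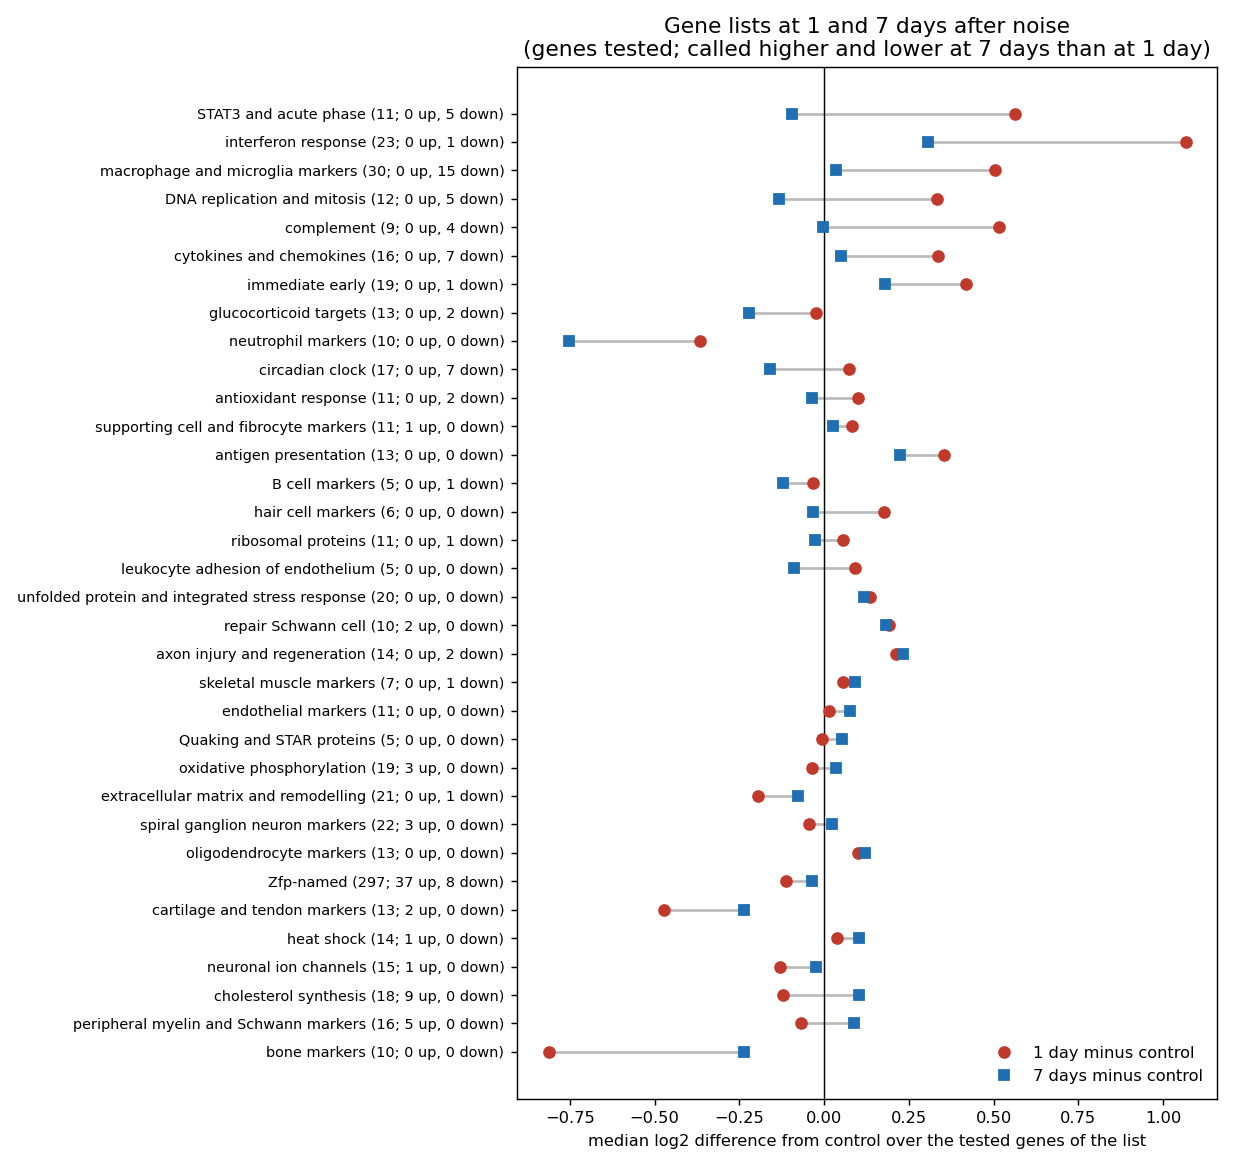
Median log2 difference from control over the tested genes of each list with at least 5 of them, at 1 day (circles) and at 7 days (squares) after noise; the horizontal axis is in log2 units and each label gives the number of genes tested and of members called higher and lower at 7 days than at 1 day. The macrophage, chemokine, STAT3 and complement lists sit at 0.34 to 0.56 at 1 day and at -0.09 to 0.05 at 7 days, the interferon list is at 0.31 and the antigen presentation list at 0.22 at 7 days, the neutrophil list is at -0.37 and -0.75, and the bone and cartilage lists sit to the left on both days.

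Immune genes led the falls. Of 30 macrophage and microglia markers tested, 15 fell from day 1 to day 7 and 0 rose. Of 16 cytokines and chemokines 7 fell, of 11 genes of the STAT3 and acute phase list 5, and of 9 complement genes 4, with 0 rises in any of these lists. The STAT3 count was 3 without replicate 2 of the arrays taken immediately after noise. Their medians were -0.53, -0.33, -0.87 and -0.46 between the days. Relative to control the same 4 medians were 0.50, 0.34, 0.56 and 0.52 at 1 day and 0.04, 0.05, -0.09 and -0.00 at 7 days. In the cytokine and chemokine list 6 members lay below the level at which genes were tested. With no genes left out for low signal its median between the days was -0.13 in place of -0.33, still with 7 calls. With the lowest 50% of genes left out it was -0.08, with 1 call. The size of that median thus depends on which genes are tested. The STAT3 median of -0.87 ran from -1.11 to -0.41 when an array of either day was left out, and was -0.40 with sex as a term. It was -0.93, with 6 calls, with no genes left out for low signal. With the lowest 50% left out it was -0.49, with 3 calls.

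Chemokines that attract monocytes showed the widest range. Ccl12, a ligand of the receptor Ccr2 on monocytes, read 6.98, 8.52 and 8.69 on the 1-day arrays and 4.38, 4.81 and 5.25 on the 7-day arrays. Controls read 4.13 to 4.66, so 1 of the 7-day arrays lay within them, 2 lay above them, and every 1-day array lay far above both groups. The change was -3.25 ± 0.41 (adjusted p = 0.000853), the largest fall among the called genes, and 7 days minus control was 0.37 with a 95% interval from -0.52 to 1.25. Cxcl10, an interferon-induced chemokine that attracts T cells, read 5.71, 7.29 and 6.65 at 1 day and 4.82, 4.30 and 4.41 at 7 days, against 4.17 to 4.38 in controls, a change of -2.04 ± 0.32 (adjusted p = 0.00237). The 2 groups of arrays did not overlap. Ccl2, another Ccr2 ligand, went from 5.44 to 5.87 at 1 day to a narrow 4.54 to 4.56 at 7 days, close to the range of controls, 4.32 to 4.72. Its change of -1.13 ± 0.28 was called (adjusted p = 0.0229) but not with sex as a term (0.127), nor without 1-day replicate 2 or 3 or 7-day replicate 2, where the adjusted p reached 0.0936. The control means of Ccl12, Cxcl10 and Ccl2 lay below the level at which genes were tested. So did the 7-day means of Cxcl10 and Ccl2. How far these chemokines returned to control therefore cannot be read from such dim values.

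Ccl5, a T cell and monocyte attractant, changed by -0.69 ± 0.12 (adjusted p = 0.00478) and ended at 4.89 to 5.13, level with or below the controls at 5.12 to 5.24. Ccl7, Cxcl12 and Cxcl14 fell by 0.87, 0.50 and 0.95 on the log2 scale. For these 3 the call was lost with sex as a term, at adjusted p-values of 0.115, 0.0526 and 0.0833, and when 1-day replicate 2 or 7-day replicate 2 was left out (adjusted p up to 0.0715, 0.0613 and 0.0653), for Ccl7 also 1-day replicate 3. The classical early cytokines did not pass the test: Il1b differed by 0.13, Tnf by 0.14 and Cxcl1 by -0.17 between the days, each with arrays of the groups overlapping. With sex as a term 3 of the 7 chemokine calls were kept, and without 1-day replicate 2 or without 7-day replicate 2, 3 of the list were called.

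In the interleukin 6 and STAT3 axis, transcripts of a receptor subunit, of Stat3 and of targets were called lower at 7 days. Not all of these calls held with sex as a term. Socs3, the feedback inhibitor of this pathway, read 7.74, 8.54 and 7.88 at 1 day and 5.75, 5.64 and 6.36 at 7 days, on both sides of the controls at 5.89 to 6.30. It changed by -2.14 ± 0.39 (adjusted p = 0.00487), and no array of one day reached the other. Other probe sets of Socs3 differed by -2.22 and by -0.63, the latter not called (adjusted p = 0.138 over all probe sets). Osmr, the receptor subunit for oncostatin M, changed by -1.23 ± 0.23 (adjusted p = 0.00561) from 7.94 to 8.28 down to 6.55 to 7.18, and its 7-day mean equalled the control mean to 0.00. Another probe set of Osmr differed by -0.54 (adjusted p = 0.0714 over all probe sets), and a dim set with a mean of 3.37 by -0.19. Timp1, an inhibitor of matrix metalloproteinases and a STAT3 target, changed by -1.17 ± 0.23 (adjusted p = 0.00856), with 7.23, 7.54 and 7.00 at 1 day and 5.76, 6.02 and 6.49 at 7 days. Stat3 itself (-0.43) and the secreted glycoprotein Lrg1 (-0.98) were called, but not with sex as a term, at 0.184 and 0.228, and each call was lost in 5 of the 6 fits without 1 array, at adjusted p-values up to 0.142 and 0.184. Without any of the 3 1-day arrays or 7-day replicate 2 the list held 3 calls in place of 5. Ptgs2, which encodes the inducible cyclooxygenase, lies outside the list and went from 5.51, 6.62 and 5.64 to 4.53, 3.67 and 4.09, a change of -1.83 ± 0.49 (adjusted p = 0.0301). That call was lost with sex as a term (adjusted p = 0.171) and without 1-day replicate 2 or 3 or 7-day replicate 2 or 3 (up to 0.138).

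**Figure D2:**
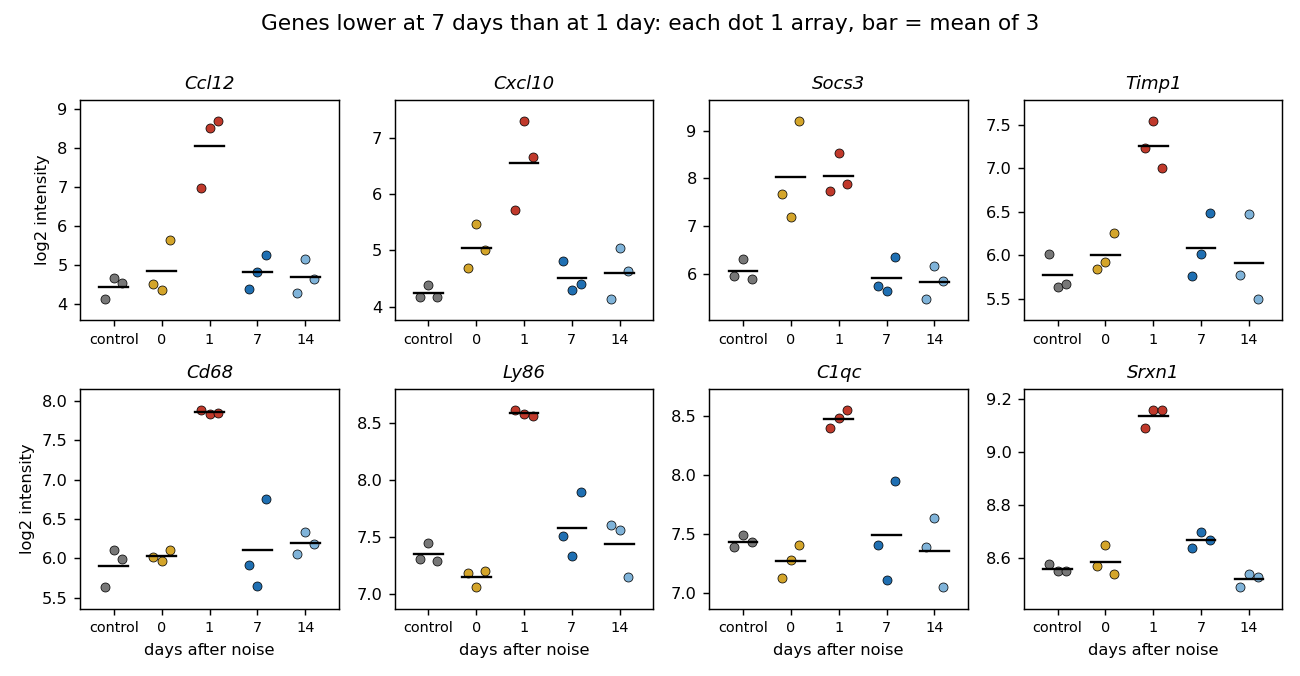
Log2 intensity (vertical axes) of 8 genes that fell from day 1 to day 7, in controls and at 0, 1, 7 and 14 days after noise; every dot is 1 array and the bar is the mean of 3. For each gene the 3 arrays at 1 day lie above the 3 at 7 days, as with Cd68 at 7.84 to 7.89 against 5.65 to 6.75.

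Macrophage transcripts fell with the chemokines. Cd68, a lysosomal membrane protein of phagocytes, was nearly the same in the 3 mice at 1 day, at 7.89, 7.84 and 7.85, and read 5.92, 5.65 and 6.75 at 7 days. Replicate 3 at 7 days, 6.75, lay above the controls at 5.63 to 6.10, and the other two lay within them. The change of -1.75 ± 0.20 had an adjusted p of 0.000645. Of the 2 calls left when the fit was restricted to male arrays, this was one and Vgf the other. Aif1, the calcium-binding protein Iba1 that labels macrophages, changed by -1.08 ± 0.18 (adjusted p = 0.00376), from 6.42 to 6.80 down to 5.04 to 5.94. The surface protein Cd52 changed by -1.59 ± 0.25 (adjusted p = 0.00237) and the membrane protein Ms4a6d by -1.51 ± 0.22 (adjusted p = 0.00152). Ly86, a partner of a Toll-like receptor homologue, went from 8.57 to 8.62 down to 7.34 to 7.90, a change of -1.01 ± 0.13 (adjusted p = 0.00099), and Cd53, a leukocyte tetraspanin, fell by 0.78. None of these 6 calls was lost with sex as a term or when any single array was left out.

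Macrophage markers did not all move alike. Csf1r, the growth factor receptor of the lineage, differed by -0.10 ± 0.11 (adjusted p = 0.607), with 9.70 to 9.71 at 1 day inside the 9.46 to 9.88 of 7 days. Cx3cr1, the fractalkine receptor, differed by -0.13 and Adgre1, a classical macrophage antigen, by -0.03, neither called, and the lipid receptor Trem2 by 0.08. In this list 19 of 30 members had every 7-day array below every 1-day array, where 9.77% of all genes did, and 0 members had the reverse, where 14.0% did. With sex as a term 9 of the 15 calls were kept, and between 10 members, without 1-day replicate 2, and 16, without 7-day replicate 3, were called when an array was left out. Coro1a and Ms4a4d, outside the list, are named because they were among the 12 largest called falls whose arrays did not overlap. The actin-binding protein Coro1a read 7.18 to 7.43 at 1 day and 5.23 to 5.98 at 7 days (-1.77 ± 0.29, adjusted p = 0.00276), and Ms4a4d read 5.82 to 6.63 and 4.24 to 5.13 (-1.60 ± 0.25, adjusted p = 0.00246). Ms4a4d ended below the 5.33 to 5.87 of the controls.

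In the complement list the 3 chains of C1q, the recognition molecule of the classical pathway, fell together. C1qb read 9.05, 9.10 and 9.19 at 1 day and 8.07, 7.55 and 8.25 at 7 days, around the controls at 7.94 to 8.04. It changed by -1.16 ± 0.16 (adjusted p = 0.00138). C1qc changed by -0.99 ± 0.17 (adjusted p = 0.00421) and C1qa by -0.89 ± 0.19 (adjusted p = 0.0115), the latter not called with sex as a term at 0.0559. Itgb2, the integrin chain of the complement receptors, fell by 1.19. C1q and Itgb2 are themselves made by macrophages, and the C1q chains are on both lists. Antigen presentation genes had no call among 13 tested, with a median of -0.09. The class II genes Cd74 and H2-Aa differed by 0.32 and 0.16, and 7-day replicate 1, the male, was the highest of the 6 arrays for both, at 8.16 and 8.70.

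Other blood cell lists had 1 call in all. The lists for T cells (4 tested), neutrophils (10) and erythroid cells (3) had 0 calls and medians of 0.10, -0.29 and -0.51 between the days, with 5, 4 and 6 members below the level at which genes were tested. Of 5 B cell genes Ebf1, also made by other cells, was called lower at -0.47 (adjusted p with sex as a term 0.161), a call lost without 1-day replicate 2 or 3 or 7-day replicate 2 (up to 0.156), and the list median was -0.08. Neutrophil genes such as S100a8 spread from 6.88 to 10.82 among the 3 controls, and replicate 3 of the controls was the highest of them. Proliferation genes fell: 5 of 12 tested genes of DNA replication and mitosis were called lower and 0 higher, with a list median of -0.50. By array the list median was 6.335, 6.855 and 6.35 at 1 day and 5.73, 5.52 and 5.75 at 7 days. Controls read 5.59, 5.92 and 7.04, so control replicate 3 lay above every 1-day array. Without replicate 3 of the arrays taken immediately after noise 3 genes of the list were called. Mcm5, a subunit of the replicative helicase, read 6.26, 6.83 and 6.38 at 1 day and 5.47, 5.25 and 5.36 at 7 days. Its controls read 5.45, 5.55 and 6.46. The change of Mcm5 was -1.13 ± 0.22 (adjusted p = 0.00807), and its partner Mcm6 fell by 0.66 (adjusted p = 0.00824). Another probe set of Mcm5 differed by -0.59 (adjusted p = 0.0741 over all probe sets), and a dim set with a mean of 3.55 by 0.02. Cdk1, the mitotic kinase, Nusap1, a spindle protein, and Pcna, the replication clamp, were called at -0.82, -0.90 and -0.18. The last 3 were not called with sex as a term, at 0.129, 0.117 and 0.0711, so that 2 of 5 were kept, and 2 to 4 list members were called when an array of either day was left out, with 2 without 1-day replicate 1 or 2 or 7-day replicate 2 and 3 without 1-day replicate 3 or 7-day replicate 1. Without an array of the other groups 3 to 6 were called. Another 12 members of this list lay below the tested level. With no genes left out for low signal the list median was -0.33, with 4 calls.

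Of the antioxidant genes Srxn1 and Txn1 fell. Srxn1, sulfiredoxin, which repairs peroxiredoxins, read 9.09, 9.16 and 9.16 at 1 day and 8.64, 8.70 and 8.67 at 7 days, just above the controls at 8.55 to 8.58, a change of -0.47 ± 0.05 (adjusted p = 0.000556). The thioredoxin gene Txn1 changed by -0.23 ± 0.05 (adjusted p = 0.0082). Both calls were kept with sex as a term and without each array in turn. They were the 2 calls among 11 antioxidant genes, whose median was -0.15. Nqo1, another target of the factor Nrf2, differed by -0.36 and Hmox1 by -0.15, neither called.

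Interferon-induced genes had lower means at 7 days than at 1 day, and how many were called turned on 1 array outside the comparison. Their list had the highest median of the 37 at 1 day against control, 1.07, and a median of 0.31 at 7 days against control and -0.69 between the days. The list median by array was 7.88, 8.41 and 7.94 at 1 day, 7.73, 7.18 and 7.85 at 7 days and 7.11 to 7.18 in controls, while the 14-day arrays read 7.13, 8.82 and 7.40. Replicate 2 at 14 days thus stood above every other array, 1-day arrays included, and it enters the spread that all groups share. With it in the fit 1 of 23 tested members was called between the days, and without it 8 were called lower and 0 higher, against 8.34% of all genes called in that fit, which was added after the data were seen. Leaving out an array of either day instead gave 0 to 2 calls. In 10 of the 23 genes every 7-day array lay below every 1-day array, where 9.77% of all genes did.

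Ifitm3, a membrane protein that blocks virus entry, was the member called in both fits. It read 11.55, 11.94 and 11.96 at 1 day and 10.48, 10.45 and 11.01 at 7 days, near the controls at 10.36 to 10.61, with 14-day replicate 2 at 12.13. The change of -1.17 had a standard error of 0.32 and an adjusted p of 0.0349 with that array and of 0.16 and 0.00205 without it. With all arrays the call was lost with sex as a term (0.0738) and without 1-day replicate 2 or 3 or 7-day replicate 1 or 2 (up to 0.119).

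Ifit3, which binds foreign RNA, read 8.56, 9.68 and 9.44 at 1 day, 7.87, 8.08 and 8.22 at 7 days and 7.30 to 7.32 in controls. Every 7-day array lay above every control and below every 1-day array. The change of -1.17 was not called with all arrays (SE 0.57, adjusted p = 0.212) and was called without 14-day replicate 2 (SE 0.29, adjusted p = 0.0285), which read 10.56. Irf7, the factor that amplifies interferon production, read 6.35, 6.81 and 7.39, then 5.85, 6.03 and 5.96, against 5.18 to 5.69 in controls. Its change of -0.90 was likewise called without that array (adjusted p = 0.0209, against 0.208). The GTPases Gbp2, Gbp3 and Irgm1, the apoptosis factor Xaf1 and the receptor transporter Rtp4 were the other called members without it, at -0.86, -1.06, -0.82, -0.71 and -0.73. No member was called at 7 days against control in either fit, and at 14 days the list median against control was 0.59 with replicate 2 and 0.07 without it.

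Promoters of this list often hold the core of the interferon-stimulated response element, read here as GAAA, then 2 bases of any kind, then GAAA, on either strand from 250 bases before to 50 bases after the gene start. Of the 20 list members with a promoter in RefSeq (assembly GRCm38.p6), 12 held it (60%), against 1079 of 27025 genes with a promoter there (3.99%). It is shown for Gbp2, an interferon-induced GTPase of the list, at chr3:142620413-142620662 on the plus strand, and for Cxcl10, named above among the chemokines, at chr5:92348890-92349139 on the minus strand. Capitals mark the match, which starts 59 bases before the gene start in Gbp2, where it lies on the opposite strand, and 213 bases before it in Cxcl10. The 250 bases before the start of each are given, since both genes are interferon-induced and Cxcl10 is among the largest falls. Gbp2, at 8.53, 8.68 and 8.83 and then 8.17, 7.02 and 8.28, had an adjusted p of 0.0726 with all arrays and 0.0411 without 14-day replicate 2.
Gbp2: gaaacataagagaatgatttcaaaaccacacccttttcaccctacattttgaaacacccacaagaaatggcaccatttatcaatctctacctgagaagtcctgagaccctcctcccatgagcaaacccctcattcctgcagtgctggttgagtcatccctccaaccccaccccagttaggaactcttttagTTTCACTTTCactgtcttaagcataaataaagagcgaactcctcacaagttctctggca
Cxcl10: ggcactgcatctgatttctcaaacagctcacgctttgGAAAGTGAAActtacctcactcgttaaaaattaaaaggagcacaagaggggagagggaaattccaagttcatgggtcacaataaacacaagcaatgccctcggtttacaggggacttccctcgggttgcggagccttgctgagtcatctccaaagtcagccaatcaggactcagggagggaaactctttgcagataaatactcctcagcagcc
The match is a description of these letters and not evidence of binding.

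**Figure D3:**
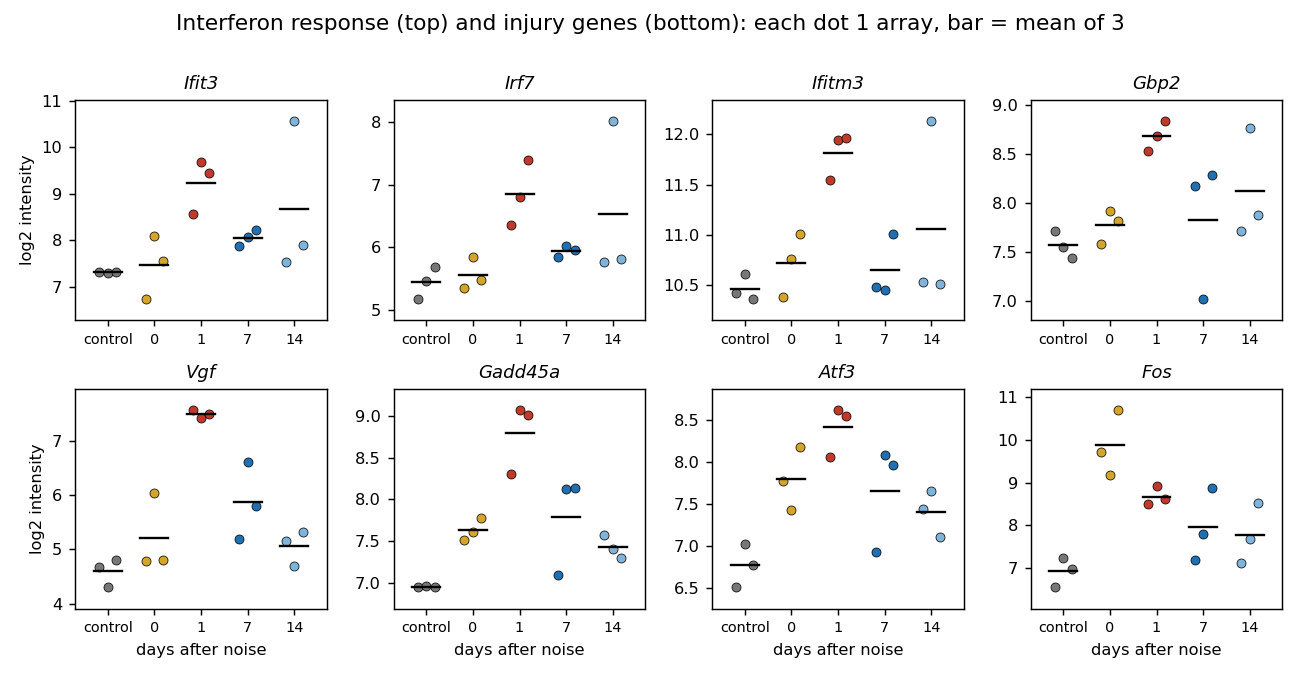
Log2 intensity (vertical axes) of 4 interferon-induced genes (top) and 4 injury or activity genes (bottom) in controls and at 0, 1, 7 and 14 days after noise; dots are arrays and bars the means of 3. Means at 7 days lie between those of day 1 and the controls in all 8 panels, as with Vgf at 5.19 to 6.61 between 4.30 to 4.81 and 7.42 to 7.58, and 1 of the 14-day arrays, replicate 2, stands above its group in the top row.

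Vgf and Gadd45a, genes of the axon injury list, fell from day 1 to day 7, with 7-day means above those of the controls. Vgf, a secreted neuropeptide precursor induced in injured neurons, read 7.58, 7.42 and 7.51 at 1 day and 5.19, 6.61 and 5.81 at 7 days, while controls read 4.30 to 4.81. It fell by 1.63 on the log2 scale (SE 0.34, adjusted p = 0.0099), and 7 days minus control was 1.27 with an interval from 0.55 to 1.99, which was not called over all genes (adjusted p = 0.253). The male at 7 days had the lowest of the 3 values. Gadd45a, a growth arrest and DNA damage gene, read 8.30, 9.07 and 9.01 at 1 day and 7.10, 8.12 and 8.14 at 7 days, with the controls at 6.95 to 6.97. The change of -1.01 ± 0.23 was called (adjusted p = 0.0172) but not without 1-day replicate 2 or 3 (up to 0.0828), and 7 days minus control was 0.83 with an interval from 0.33 to 1.33, also not called (adjusted p = 0.266). By 14 days the means were 5.06 for Vgf and 7.43 for Gadd45a.

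Atf3, a transcription factor induced in axotomised neurons, and Fos, an activity-induced factor, overlapped between the days. Atf3 differed by -0.75 ± 0.27 (adjusted p = 0.0926), with 6.93, 8.08 and 7.96 at 7 days against 8.06, 8.62 and 8.55 at 1 day, so a single array of each day overlapped by a narrow margin. Fos differed by -0.73 ± 0.43 (adjusted p = 0.309), and 7-day replicate 3, at 8.87, reached the 1-day range of 8.49 to 8.91. Against control, the 7-day values were 0.88 (0.31 to 1.46) for Atf3 and 1.03 (0.12 to 1.94) for Fos, neither called. Of 14 axon injury and regeneration genes tested, Vgf and Gadd45a were the 2 called lower and 0 were called higher, with a list median of 0.02. Of 19 immediate early genes 1 was called, Jund, at -0.27 (adjusted p = 0.0194, or 0.0859 with sex as a term and 0.0861 without 1-day replicate 2), and the median of the list was -0.31. Without replicate 3 of the 7-day, 14-day or immediate arrays 2 of that list were called. The unfolded protein response, 20 genes, had 0 calls and a median of -0.06, and of 14 heat shock genes Hspa4l was called higher at 0.31 (0.103 with sex as a term), a call lost when any single 1-day array or 7-day replicate 1 was left out (up to 0.1003).

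Some myelin lipid and myelin protein genes rose. Of 16 tested peripheral myelin and Schwann cell genes, 5 were called higher at 7 days and 0 lower, with a median of 0.25 between the days, -0.07 for 1 day minus control and 0.09 for 7 days minus control. Fa2h, the hydroxylase that makes the 2-hydroxylated fatty acids of myelin lipids, read 8.78, 8.73 and 8.91 at 1 day and 9.36, 9.53 and 9.49 at 7 days, with the controls at 9.05 to 9.45. The 1-day arrays lay below both other groups. It changed by 0.65 ± 0.10 (adjusted p = 0.00266). Ugt8a, the enzyme that makes the myelin lipid galactosylceramide, rose by 0.32 ± 0.08 (adjusted p = 0.0188), and Cnp, a cytoplasmic myelin enzyme, by 0.25 ± 0.04 (adjusted p = 0.00276), from 12.81 to 12.94 up to 13.12 to 13.14, where the controls read 13.07 to 13.15. Gjb1, a connexin of the Schwann cell, read 6.72, 6.73 and 6.97 at 1 day, which was level with the controls at 6.55 to 7.00, and 7.08, 7.43 and 7.57 at 7 days, above them. It changed by 0.55 ± 0.14 (adjusted p = 0.0237), a call lost without 1-day replicate 1 or 2 or 7-day replicate 2 or 3 (up to 0.0925). Another probe set of Gjb1 differed by 0.42 (adjusted p = 0.164 over all probe sets). The membrane protein Pllp changed by 0.36 ± 0.08 (adjusted p = 0.0166).

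Fa2h and Cnp were the 2 of the 5 that kept their call with sex as a term, where Gjb1, Ugt8a and Pllp had adjusted p-values of 0.0886, 0.0512 and 0.0641. Without 1-day replicate 2 or without 7-day replicate 2, 2 of the list were called, and without 1-day replicate 3 or 7-day replicate 1, 6. Major structural genes did not pass the test: Mbp differed by 0.02 ± 0.05, Pmp22 by 0.08 ± 0.04 and Mag by 0.25 ± 0.15. The Schwann cell factors Egr2 and Sox10 differed by 0.38 and 0.38, not called, at adjusted p-values of 0.115 and 0.16. Of 10 genes of the repair Schwann cell list, the nerve growth factor receptor Ngfr (0.43, adjusted p = 0.0336) and the ligand Shh (0.40, adjusted p = 0.0291) were called higher, neither with sex as a term, at 0.0602 and 0.126. Without 1-day replicate 2 or 3 or 7-day replicate 2 the list held 0 calls, and without 1-day replicate 1 or 7-day replicate 1 it held 1. Ngfr returned from 7.33 to 7.66 to 7.66 to 8.09, close to the controls at 7.66 to 7.95, whereas Shh went from 8.11 to 8.13 up to 8.31 to 8.75, above the controls at 7.78 to 8.07.

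Genes of cholesterol synthesis rose as well. Of 18 tested genes 9 were called higher and 0 lower, with a median of 0.20 between the days, and -0.12 and 0.10 against control at 1 and 7 days. Called genes ran from the start of the pathway to its late steps. Hmgcs1, which makes the precursor HMG-CoA, read 11.09, 11.22 and 11.20 at 1 day and 11.54, 11.59 and 11.58 at 7 days, above the controls at 11.27 to 11.44, a change of 0.40 ± 0.06 (adjusted p = 0.00165). Mvd and Idi1, which act on mevalonate products, changed by 0.49 ± 0.10 (adjusted p = 0.0108) and 0.54 ± 0.09 (adjusted p = 0.00355). Sqle, squalene epoxidase, went from 8.32 to 8.51 up to 8.77 to 8.82 (0.39 ± 0.08, adjusted p = 0.00807), and the controls, at 8.45 to 8.62, reached from the 1-day range towards it. Fdps, Fdft1, Msmo1 and Sc5d rose by 0.23, 0.35, 0.37 and 0.28, and Fdps and Sc5d lost their call with sex as a term, at 0.1002 and 0.0512. Srebf2, the transcription factor that drives the pathway, rose by 0.25 (adjusted p = 0.0373, or 0.177 with sex as a term). Insig1, which holds that factor in check, differed by -0.03, Cyp51 by 0.13 and Lss by 0.04, none called. With sex as a term 6 of the 9 calls were kept, and between 4 members, without 1-day replicate 2, and 9, without 7-day replicate 1, were called when an array was left out. A second probe set of Idi1 differed by 0.03. With the mean over the probe sets of each gene, Idi1 differed by 0.285 (adjusted p = 0.191) and 5 genes of the list were called.

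**Figure D4:**
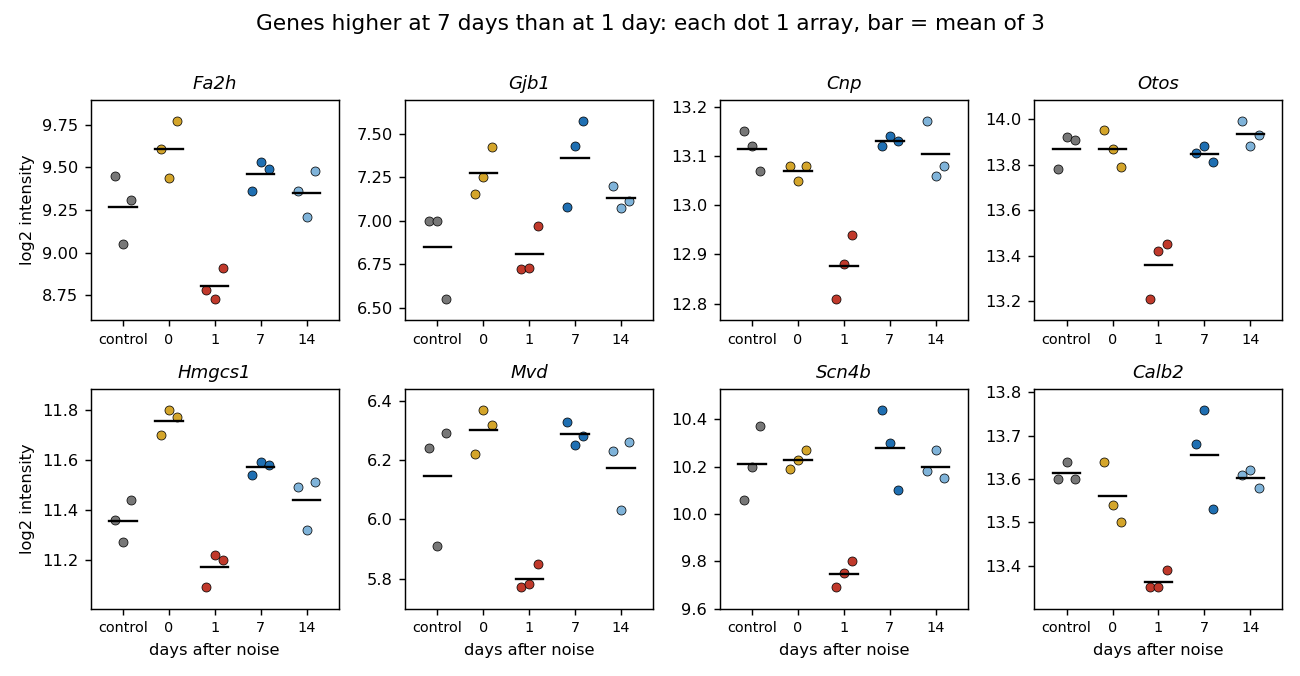
Log2 intensity (vertical axes) of 8 genes that rose from day 1 to day 7, in controls and at 0, 1, 7 and 14 days after noise; dots are arrays and bars the means of 3. Each 1-day group lies below its 7-day group, as with Otos at 13.21 to 13.45 against 13.81 to 13.88, and the vertical scales differ between genes.

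A few neuronal genes rose, by small amounts. Of 22 tested markers of spiral ganglion neurons 3 were called higher and 0 lower, and the list median was 0.06. The count was 2 to 4 with any other single array left out and 6 without 7-day replicate 3. Calb2, calretinin, read 13.35, 13.35 and 13.39 at 1 day and 13.68, 13.76 and 13.53 at 7 days, on either side of the controls at 13.60 to 13.64 (0.29 ± 0.05, adjusted p = 0.0042). Lypd1, a toxin-like modulator of nicotinic receptors, went from 10.62 to 10.74 up to 11.02 to 11.25 (0.42 ± 0.06, adjusted p = 0.00165), and the controls read 10.99 to 11.11. A second probe set of Lypd1 differed by 0.10 (adjusted p = 0.695 over all probe sets). The neurofilament light chain Nefl rose by 0.16 ± 0.04 (adjusted p = 0.0383), and was not called with sex as a term (0.0987). Its partners Nefh and Nefm differed by 0.16 and 0.10, not called. Among 15 ion channel genes the sodium channel subunit Scn4b was called, at 9.69, 9.75 and 9.80 and then 10.44, 10.30 and 10.10, level with the controls at 10.06 to 10.37 (0.53 ± 0.08, adjusted p = 0.00234), and it kept its call with sex as a term and without each array of the 2 days. Without 7-day replicate 3, 4 of the ion channel genes were called. Of 19 genes of oxidative phosphorylation 3 were called higher, Uqcrc1 by 0.30, Cox5a by 0.21 and Sdha by 0.15, and 0 of them with sex as a term. The other 2 probe sets of Cox5a differed by 0.00 and -0.12, and the mean over its sets by 0.03 (adjusted p = 0.677). Without 1-day replicate 2, 1 of the oxidative phosphorylation list was called, and without 1-day replicate 1, 5.

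Otos, otospiralin, a protein of cochlear fibrocytes, was the called gene among 11 supporting cell and fibrocyte markers. It read 13.21, 13.42 and 13.45 at 1 day, 13.85, 13.88 and 13.81 at 7 days and 13.78 to 13.92 in controls (0.49 ± 0.06, adjusted p = 0.000853). The 7-day arrays lay inside the control range. Lateral wall tissue, which holds these fibrocytes, was removed in the dissection per the labels' protocols, and the share that remained on each array was not measured.

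Skeletal tissue genes had list medians below control on both days, with 0 members called at 7 days against control. The bone list had a median of -0.81 for 1 day minus control and -0.24 for 7 days minus control, and 0.33 between the days, with 0 of 10 members called, and the cartilage and tendon list had -0.47, -0.24 and 0.12 with 2 of 13 called higher. Ucma, a matrix protein of cartilage cells, read 9.16, 9.76 and 9.63 at 1 day and 10.20, 10.17 and 9.95 at 7 days (0.59 ± 0.13, adjusted p = 0.015, or 0.0687 with sex as a term), and every control, at 10.44 to 10.66, lay above both. Thbs4, a thrombospondin of tendon, changed by 0.63 ± 0.16 (adjusted p = 0.0229), a call lost without 1-day replicate 1 or 2 or 7-day replicate 1 or 2 (up to 0.101). Ibsp, bone sialoprotein, differed by 0.77 ± 0.43 (adjusted p = 0.279), and its controls spread from 8.25 to 10.04 with control replicate 3 the highest. How much bone and cartilage each dissection kept was not measured, and its part in these values was not tested.

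Of the 12 largest called rises whose arrays did not overlap, 5 were genes of the zinc finger family named Zfp, most of which are DNA-binding repressors. Across the 297 tested genes of that name 37 were called higher and 8 lower, a median of 0.10 between the days and -0.11 and -0.04 against control at 1 and 7 days. Zfp82 read 4.72, 4.26 and 4.60 at 1 day and 5.86, 5.43 and 5.78 at 7 days, with controls at 5.25 to 5.39 (1.16 ± 0.18, adjusted p = 0.00227). Its other probe set differed by 0.10 but, with a mean of 3.29, lay below the tested level. Zfp94, Zfp950, Zfp563 and Zfp420 changed by 0.91, 0.90, 0.93 and 0.86. Other probe sets of Zfp950 differed by 0.21 and 0.22 and one of Zfp420 by 0.15, none called over all probe sets. Zfp563 lost its call without 1-day replicate 2 (adjusted p = 0.0528), and Zfp420 with sex as a term (0.0914). Over all alternative settings Zfp563 lost its call in 3 of 27 and Zfp420 in 9 of 27. The 2 largest called falls of the family were Zfp788 at -0.55 and Zfp110 at -0.51, and the first was lost with sex as a term (0.195). A second probe set of Zfp788 differed by 0.30, and the mean over its sets was -0.13 (adjusted p = 0.469). With sex as a term 15 of the family were called higher and 1 lower, and 13 were called in all without 1-day replicate 2 and 20 without 1-day replicate 3.

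The largest rise of all called genes whose arrays did not overlap was Thap2, which carries a zinc-coordinating THAP domain, at 6.69, 6.10 and 5.97 and then 7.64, 7.34 and 7.59 (1.27 ± 0.18, adjusted p = 0.00135). Sfi1, a centrosome-associated protein, was nearly identical within each day, at 6.90, 6.91 and 6.90 and then 8.11, 8.17 and 8.08, a change of 1.22 ± 0.13 (adjusted p = 0.000556). For both genes the controls lay above the 1-day arrays, at 6.90 to 7.48 and 7.67 to 7.94, and nearer to the 7-day values. A second probe set differed by -0.06 for Thap2 and by 0.00 for Sfi1. With means of 4.41 and 4.25 these second sets lay below the tested level, so each rise rests on 1 probe set. The rises of Fam78a (0.94 ± 0.11) and of the retrovirus restriction gene Fv1 (0.85 ± 0.14), each with a single probe set, kept their call in the sex-term fit and without each array. The non-coding transcript 9530059O14Rik rose by 1.04, while its second probe set differed by 0.06 (adjusted p = 0.914 over all probe sets) and the mean over sets by 0.55. The ciliary gene Dcdc2a rose by 0.89 and was called in 1 of the 6 fits without an array (adjusted p up to 0.104 in the others).

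Neat1, the RNA scaffold of nuclear paraspeckles, was one of the 3 genes called against control at 7 days. It read 9.08, 9.33 and 9.40 at 1 day, 10.16, 10.07 and 10.20 at 7 days and 9.25 to 9.54 in controls. The 1-day arrays were level with the controls and the 7-day arrays stood above both, by 0.87 ± 0.11 against 1 day (adjusted p = 0.00099) and by 0.75 against control (interval 0.50 to 0.99, adjusted p = 0.0466). A second, dimmer probe set of Neat1 went the other way between the days, by -0.63 ± 0.15 (adjusted p = 0.0235 over all probe sets), with 7.58, 7.35 and 7.26 and then 6.68, 6.98 and 6.64. Which transcript form each set reads was not tested here.

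Clock genes fell from day 1 to day 7, and 2 of them, Dbp and Ciart, were called below control. Of 17 tested genes of the circadian clock 7 were called lower and 0 higher, and the list median was -0.23 between the days, 0.07 for 1 day minus control and -0.16 for 7 days minus control. Dbp, a transcription factor driven directly by the clock, read 9.89, 10.21 and 10.08 at 1 day, 8.68, 8.47 and 8.87 at 7 days and 10.43 to 10.63 in controls, a change of -1.39 ± 0.19 (adjusted p = 0.00114) and -1.87 against control (adjusted p = 0.000775). The 3 groups were fully apart, with 7 days lowest. Ciart, a clock repressor, read 8.10, 8.41 and 8.53, then 7.19, 7.09 and 6.99, with controls at 8.09 to 8.55, a change of -1.26 ± 0.13 (adjusted p = 0.000556) and -1.18 against control (adjusted p = 0.00107). Here the 1-day arrays and the controls covered nearly the same range.

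The nuclear receptor Nr1d1 and the negative regulators Per2, Per1 and Cry2 moved in the same direction. Nr1d1 went from 7.62 to 8.50 down to 6.56 to 7.32 (-1.31 ± 0.27, adjusted p = 0.00877), and Per2 from 8.02 to 8.39 down to 7.07 to 7.23 (-1.05 ± 0.11, adjusted p = 0.000556), with Per2 controls at 7.60 to 7.73 in between. Per1, Cry2 and the repressor Bhlhe40 fell by 0.57, 0.60 and 0.55 on the log2 scale, calls that were lost with sex as a term at 0.0843, 0.0793 and 0.0819. The activators Arntl and Npas2, whose rhythm runs opposite to that of the Per genes, differed by 0.49 ± 0.17 and 1.15 ± 0.35, at adjusted p-values of 0.0853 and 0.0503. With sex as a term 4 of the 7 calls were kept, and 4 to 7 list members were called when an array of either day was left out, with 4 without 1-day replicate 2. Without an array of the other groups 7 to 9 were called. At 14 days the means were 9.69 for Dbp and 7.70 for Ciart. The labels do not state the time of day of each dissection, and its part in these values was not tested. Of 13 glucocorticoid targets Per1 and Sgk1, the latter at -0.35 (0.19 with sex as a term), were called. Leaving out 1-day replicate 2 or 3 or 7-day replicate 2 brought that count to 0, and leaving out 7-day replicate 3 to 1. It came to 3 when 1-day replicate 1 was left out, and to 4 for 7-day replicate 1.

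Ciart is shown because its promoter carries several E-boxes, the CACGTG element that the clock activators bind as a palindrome. The motif was chosen after the values were seen. Of 15 clock genes with a RefSeq promoter 5 held it in the same window (33.3%), against 2187 of 27025 genes (8.09%). The 5 were Ciart and Per1, called lower at 7 days, and Bhlhe41, Cry1 and Tef, not called. Dbp, Nr1d1 and Cry2, also called lower, had no match. In Ciart, at chr3:95882229-95882478 on the minus strand of GRCm38.p6, matches begin 116, 58 and 44 bases before the start and stand in capitals.
Ciart: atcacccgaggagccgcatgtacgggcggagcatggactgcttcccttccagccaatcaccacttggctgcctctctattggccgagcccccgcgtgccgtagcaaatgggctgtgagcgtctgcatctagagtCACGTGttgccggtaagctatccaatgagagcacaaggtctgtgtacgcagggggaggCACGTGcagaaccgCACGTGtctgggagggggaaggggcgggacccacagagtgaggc
As above, the match describes the sequence and is not a measured site.

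**Figure D5:**
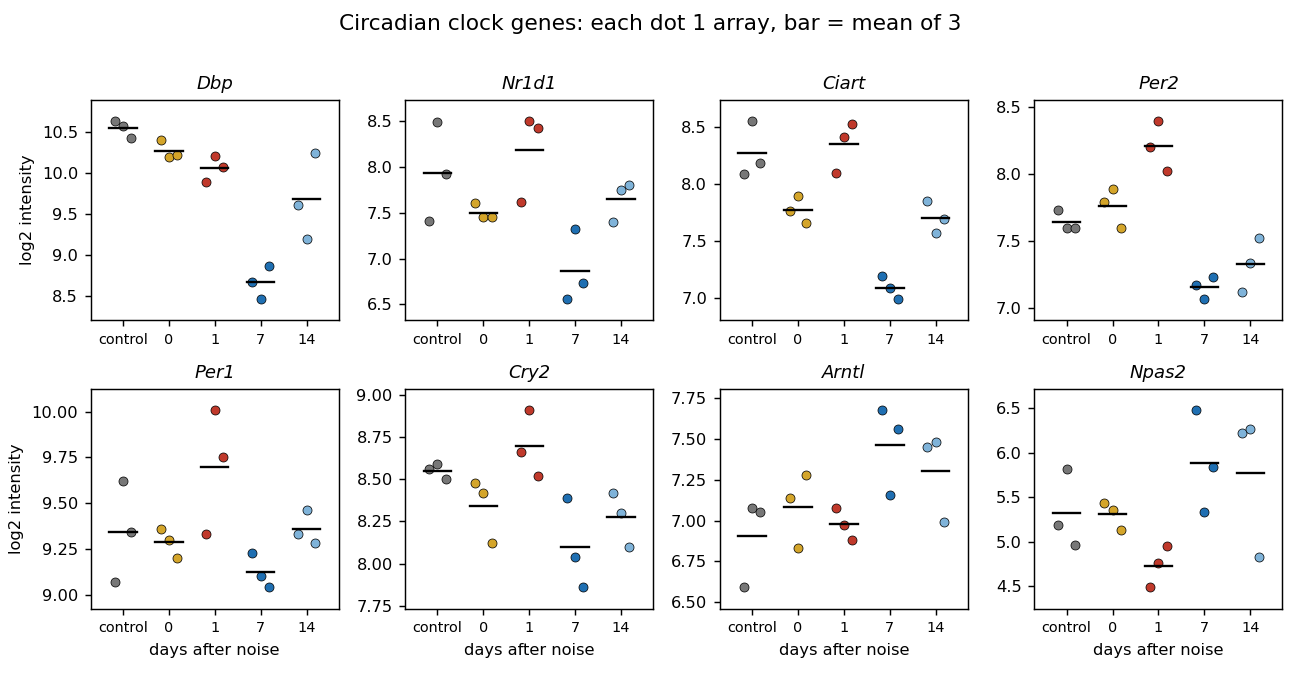
Log2 intensity (vertical axes) of 8 clock genes in controls and at 0, 1, 7 and 14 days after noise; dots are arrays and bars the means of 3. Dbp, Nr1d1, Ciart, Per2, Per1 and Cry2 were called lower at 7 days than at 1 day, and the 7-day means of the activators Arntl and Npas2, not called, lie above those of day 1.

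Quaking itself, Qk, was read by 7 probe sets that differed in direction. The set with the highest mean differed by -0.16 ± 0.07 between the days (adjusted p = 0.194), with 11.39, 11.51 and 11.38 at 1 day and 11.24, 11.24 and 11.33 at 7 days. Differences of the 7 sets ran from -0.55 to 0.29. When every probe set was fitted by itself, 1 of the 7 was called between the days, at 11.01, 11.11 and 10.91 and then 10.58, 10.42 and 10.50, a change of -0.51 ± 0.06 (adjusted p = 0.000525 over 34945 probe sets). Its controls read 10.57 to 10.71, so this set stood above control at 1 day, by 0.37 (adjusted p = 0.00819), and near the lower edge of control at 7 days, by -0.14 (adjusted p = 0.468). The Quaking and STAR protein list had 0 calls among 5 genes and a median of 0.06.

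The remaining lists had few calls. Among 21 extracellular matrix genes Timp1, described above, was called, with a list median of 0.06. Endothelial markers (11 tested), genes of leukocyte adhesion to endothelium (5), oligodendrocyte markers (13), hair cell markers (6) and osteoclast markers (2) had 0 calls between the days, with medians of 0.03, -0.07, 0.07, -0.08 and -0.12. In skeletal muscle Casq1 was called lower at -0.69 (0.137 with sex as a term), a call lost without 1-day replicate 1 or 7-day replicate 2 or 3 (up to 0.0996). Among 11 ribosomal proteins Rps2 was called lower at -0.15 (adjusted p = 0.0207), but not without 1-day replicate 2 or 7-day replicate 1 or 2 (up to 0.0915).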

How the data were processed

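Total RNA (50 ng) was labelled for each Affymetrix array, per the labels' protocols. The deposited log2 values were used as the authors gave them; the submitters' processing notes name Affymetrix Expression Console, RMA and MAS5, with no version, and the sources used here do not say which of these gave them. Medians of the arrays ran from 5.87 to 5.92, and no 2 arrays shared more than 3.67% of identical values. Of 45101 probe sets, 34945 paired with 1 gene, 932 with several and 9160 with none, and 64 were controls. For each of 18193 genes the 1-gene probe set of highest mean was used, and genes in the lowest 25% (at or below 4.70) were left out. Group means were fitted over all 15 arrays with limma 3.58.1 in R 4.3.3 (lmFit, eBayes with a trend, two-sided, 10 residual degrees of freedom), tested first on simulated data. Intervals are at 95%. Named genes were the 12 largest called falls and rises whose arrays did not overlap, the 2 largest of every list that had 3 or more called members, and a few genes of the study; other named genes were chosen after their values were seen. Members, lists and rules were chosen with earlier results of these data known. Array numbers limit the precision, and changes of dim genes may be misstated, which was not tested. Alternatives were other filters, probe set rules, normalizations, limma settings, sex, the replicate block and leaving out each array (for the 9 arrays of other groups, added after the data were seen).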

Additional observations from a re-analysis of the deposited data

Results flagged for a closer look

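Probe sets with no single gene, which were outside the comparison, were fitted by themselves. Of 4950 tested, 181 were lower and 104 higher at 7 days than at 1 day (5.76% called, limma). Among the control sets, 2 of the 3 for 18S ribosomal RNA were lower at 7 days, with differences of -0.83 ± 0.14 for the 5' set (adjusted p = 0.00508) and -0.89 ± 0.14 for the middle set (adjusted p = 0.00379), against -0.41 ± 0.15 for the 3' set (adjusted p = 0.128). The 5' set read 11.97 to 12.06 at 1 day and 11.00 to 11.49 at 7 days, and its controls 11.82 to 12.37. For beta-actin the 3' set minus the 5' set was 0.45 to 0.50 at 1 day and 0.46 to 0.51 at 7 days. The part of the ribosomal signal in the other results was not tested.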

How the results depend on the processing

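None of the 47 tested genes named by rule reversed its direction in 28 settings. Of their values 1181 kept their side of the threshold, 108 fell short of it and 1 (Qk, with every probe set fitted by itself) passed it. Genes named after their values were seen were outside this check. With every probe set fitted by itself, a gene was read by its set of lowest p-value. Sets of the opposite direction, as for Neat1 and Zfp788, did not enter that setting. The count of calls between the days, 1276 (700 higher, 576 lower), moved as follows. It was 710 (377 and 333) with array weights, 200 (96 and 104) with the 6 arrays alone, 449 (272 and 177) with sex as a term, 2 (0 and 2) with male arrays alone, where the lone 7-day male is assumed to vary like the other groups, and 222 (83 and 139) at an unadjusted p under 0.05 with at least 1.5-fold; every probe set by itself gave 939 lower. Leaving out 1 of the 6 arrays compared gave 429 to 1329 calls, 256 to 727 of them higher and 173 to 663 lower. Leaving out 1 of the other 9, a choice added after the data were seen, gave 1138 to 1326, and called interferon-induced genes went from 1 to 8 without 14-day replicate 2. The sex-term count ran from 1, without 7-day replicate 1, to 781. No filter, a 50% filter, the mean over probe sets, no trend, robust eBayes, quantile normalization and a common 75th percentile gave 1066 to 1468 calls. With the replicate block 1505 genes were called, 1221 of them shared. The correlations of same-numbered deviations between the days were 0.19, -0.22 and 0.07, and those of other pairs ran from -0.25 to 0.21. Deviations from a mean of 3 arrays are tied to each other, so these values cannot decide whether the number pairs the animals. The number of arrays and the sex imbalance limit these calls.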
